A study of Mus musculus with 9 samples.

Results

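The genes described here are 33 named members of glycolysis and of the hypoxia response, taken by symbol from a deposited table of 25860 genes, in which all 33 were found. They comprise 20 glycolytic members (the glucose transporter Slc2a1, the glycolytic enzymes with their regulators Pfkfb3 and Pfkfb4, and the lactate and pyruvate genes Ldha, Slc16a3 and Pdk1), 11 further targets of the hypoxia-inducible factors (HIF), and 2 HIF subunits, Hif1a and Epas1. They were measured by RNA sequencing in 5 libraries labelled IRE1KO and 4 labelled WT, all from the calvaria (skull vault) of newborn mice. Cells of both genotypes carried Osx1-Cre, a Cre recombinase under the osterix (Sp7) promoter, which is active in osteoblast precursors and their descendants, and were purified by flow sorting, grown in alpha-MEM with 10% FBS and lysed at 90% confluence. Each library pooled cells of 3 to 5 pups aged 2 to 4 days, a pool that the labels count as 1 biological replicate. IRE1, the product of Ern1, is a stress sensor of the endoplasmic reticulum. The labels give no allele, strain or oxygen level of the culture, and no treatment other than the genotype.

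Glycolysis splits glucose into pyruvate and yields ATP without oxygen, and lactate dehydrogenase then turns pyruvate into lactate so that the pathway can go on. When oxygen is scarce, the prolyl hydroxylases encoded by Egln1 and Egln3 stop marking HIF-alpha proteins for destruction, and HIF raises transcription of most glycolytic enzymes and of genes for vessel growth, mitophagy and pH control. HIF-alpha is controlled mainly at the protein level, so its mRNA need not follow its activity. In bone, osteoblasts rely strongly on glycolysis, and the HIF pathway links them to vessel growth through Vegfa.

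Libraries held 18784636 to 22028075 counts. Levels are given as CPM, library-size-normalised counts scaled by the trimmed mean of M values, and a floor of 3 counts corresponded to 0.136 to 0.16 unscaled CPM. Col1a1, a chain of type I collagen, stood at 23304 ± 1126 CPM in the 5 IRE1KO and 20395 ± 7219 CPM in the 4 WT libraries (SD), whereas the mature osteoblast genes Bglap and Ibsp were scarce. Of the 7 erythroid markers none averaged 1 CPM and 5 had no counts. Ern1 itself was at 49.8 to 55.8 CPM in IRE1KO and 41.5 to 54.2 CPM in WT, and a count per gene cannot show whether exons are missing, so that the genotype is known from the labels alone. WT library 4 stood apart on the first principal component (45.9% of the variance) at 56.7, against -23.4 to 15.1 for the others, and the WT libraries differed from each other more than the IRE1KO libraries did.

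None of the 32 tested members passed in either direction between IRE1KO and WT (quasi-likelihood test of edgeR, Benjamini-Hochberg p under 0.05 over 13712 genes), while 87 genes were called in all, or 0.634% of those tested. At an unadjusted p under 0.05 the same test took 5 of the 32 members, near the 16.5% of all tested genes. DESeq2 called 3 members, Pfkm, Eno2 and Bnip3, against 4.14% of all genes, and limma voom called 0, against 0.117% of all genes. At an unadjusted p under 0.05 limma voom took 4 of the 32 members and 16% of all genes. Leaving out WT library 1 made edgeR call 4 members, the same 3 and Hk2, where 8.63% of all genes were called, and leaving out WT library 4 made it call 1, Adm, where 2.9% of all genes were called. In simulated data of this design, calls recovered 56% of genes changed 1.5-fold and 16% of those with a smaller change, so differences of the size seen here are often missed. By sign, 19 members had a positive and 13 a negative log2 fold change of IRE1KO over WT, with a median of 0.038 beside -0.0050 over all tested genes.

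Bnip3, Pfkm, Eno2, Hk2 and Adm were the members called under any of these settings, and the bases just upstream of their transcription starts are printed here to show how far they hold the DNA core that HIF binds. Sequences are from RefSeq on GRCm38.p6, read 5′ to 3′ towards the gene, and they end before the gene as GENCODE M21 annotates it. For Pfkm, which has further RefSeq starts inside the gene, only the bases at the outermost start are printed. Capitals mark every ACGTG or GCGTG on either strand (CACGT or CACGC in the printed strand), and a palindromic CACGTG counts once for each strand.

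Bnip3 (chr7:138909520-138909756, minus strand): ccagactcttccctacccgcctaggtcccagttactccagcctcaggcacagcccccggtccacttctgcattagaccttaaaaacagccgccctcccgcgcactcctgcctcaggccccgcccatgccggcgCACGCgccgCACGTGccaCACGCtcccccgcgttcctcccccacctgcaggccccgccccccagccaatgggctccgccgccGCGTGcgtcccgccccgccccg

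Pfkm (chr15:98092339-98092588, plus strand): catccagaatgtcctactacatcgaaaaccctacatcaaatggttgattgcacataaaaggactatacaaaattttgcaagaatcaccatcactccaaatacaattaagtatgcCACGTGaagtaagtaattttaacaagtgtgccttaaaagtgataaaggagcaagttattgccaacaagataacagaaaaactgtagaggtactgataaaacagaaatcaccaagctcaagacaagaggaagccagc

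Eno2 (chr6:124769674-124769923, minus strand): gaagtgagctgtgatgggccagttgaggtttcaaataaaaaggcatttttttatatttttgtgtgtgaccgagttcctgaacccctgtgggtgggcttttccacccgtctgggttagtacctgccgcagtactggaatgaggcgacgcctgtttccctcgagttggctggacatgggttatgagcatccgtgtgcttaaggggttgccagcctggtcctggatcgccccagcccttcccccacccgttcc

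Hk2 (chr6:82774455-82774704, minus strand): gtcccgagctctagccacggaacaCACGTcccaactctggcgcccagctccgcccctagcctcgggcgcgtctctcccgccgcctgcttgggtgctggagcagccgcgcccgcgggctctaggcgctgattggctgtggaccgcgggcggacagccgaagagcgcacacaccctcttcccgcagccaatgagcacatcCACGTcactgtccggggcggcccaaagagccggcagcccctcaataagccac

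Adm (chr7:110627407-110627656, plus strand): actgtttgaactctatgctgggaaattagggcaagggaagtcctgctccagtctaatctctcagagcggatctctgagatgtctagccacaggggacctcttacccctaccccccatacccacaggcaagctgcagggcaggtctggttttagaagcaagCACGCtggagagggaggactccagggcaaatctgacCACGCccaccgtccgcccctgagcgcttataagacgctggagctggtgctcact

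The core was present 5 times in 237 bases upstream of Bnip3, 2 times in 250 bases each for Pfkm, Hk2 and Adm, and in none of the 250 bases of Eno2. The longer RefSeq windows span 300 bases around each start, and a gene counted if any of its windows held the core. On that count 27 of the 30 members with a window held it (90%), as did 46.7% of all 27025 genes with a window. By window, 76.6% of the members' 47 windows held the core, beside 43.8% of all 32851 windows. For Pfkm the window at the printed start held 3 cores, and those at starts further inside the gene held 2, 1 and 0. Both motifs contain a CG pair and base composition was not matched, so this is a description of the letters only. No window was at hand for Ndrg1, Bhlhe40 and Epas1.

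**Figure D1:**
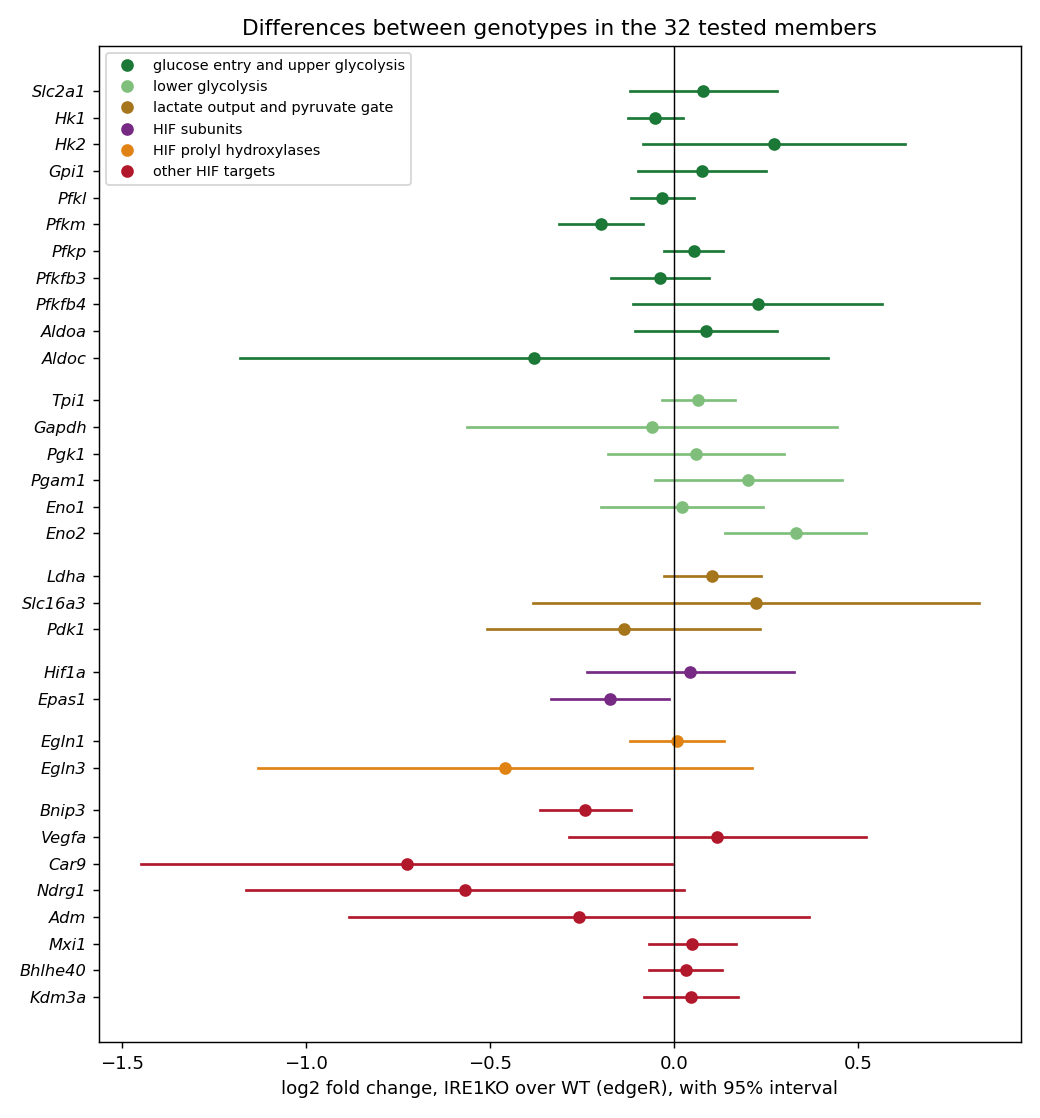
Log2 fold change of IRE1KO over WT for the 32 tested members (horizontal axis, edgeR), with bars for the 95% interval and colours for the members' roles. The intervals of Pfkm, Eno2, Bnip3, Epas1 and Car9 lie to one side of 0 before adjustment, and no member passed after it.

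Of the genes for glucose entry and trapping, none was called. Slc2a1, which encodes the widespread glucose transporter GLUT1, was at 52.8 ± 1.92 CPM in the 5 IRE1KO and 49.95 ± 7.39 CPM in the 4 WT libraries (SD). Hexokinase phosphorylates glucose and traps it in the cell. The main isozyme by level was Hk1, which had 149.7, 146.5, 151.0, 148.3 and 152.9 CPM in IRE1KO libraries 1 to 5 and 157.8, 158.7, 149.1 and 154.9 CPM in WT libraries 1 to 4. Its interval was tight, with a log2 fold change of -0.051 ± 0.033 SE, and the highest WT library stood 1.06-fold above the lowest. Hk2, the isozyme that HIF and growth signals induce, had 67.6, 69.3, 68.1, 61.5 and 69.8 CPM in IRE1KO and 75.8, 58.6, 49.0 and 39.4 CPM in WT. The IRE1KO libraries thus lay inside the WT range, above 3 WT libraries and below WT library 1. Its log2 fold change was 0.27 ± 0.16 SE (adjusted p = 0.422, edgeR), which became 0.46 ± 0.11 SE with an adjusted p of 0.0430 without WT library 1, and 0.14 ± 0.12 SE without WT library 4.

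Of the 3 phosphofructokinase subunits, which carry out the committed step, the muscle form was the one whose groups did not overlap. Pfkm had 56.2, 55.3, 56.2, 56.1 and 54.9 CPM in IRE1KO and 57.0, 67.6, 66.2 and 64.8 CPM in WT, so that the groups did not overlap but WT library 1 lay just above the highest IRE1KO library. The log2 fold change was -0.20 ± 0.050 SE, or 0.872-fold (adjusted p = 0.116, edgeR), and -0.25 ± 0.032 SE with an adjusted p of 0.00616 without WT library 1. Non-overlap as such was common: it held for 2 of the 32 members and for 6.93% of all tested genes. Skeletal muscle markers were summed for comparison with Pfkm. Over 12 genes they reached 49.4 to 57.8 CPM in IRE1KO and 81.7, 90.2, 54.4 and 37.8 CPM in WT libraries 1 to 4. WT library 4 thus had the lowest sum of all 9 libraries, while its Pfkm lay above every IRE1KO library. Myf5 was at 0, and Myod1 and Myog were under 1 CPM on average. Of the 5 tested muscle markers, 4 had a negative and 1 a positive log2 fold change. An unadjusted p under 0.05 was reached by 2 of them (40%, beside 16.5% of all tested genes), and none was called (edgeR). The part of these markers in the result was not tested.

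Pfkl, the liver form, had 67.1, 67.6, 68.0, 64.2 and 65.8 CPM in IRE1KO and 66.9, 71.5, 65.0 and 68.6 CPM in WT. Pfkp, the platelet form, had 71.2, 69.2, 72.4, 70.6 and 73.9 CPM in IRE1KO and 67.5, 71.1, 70.0 and 66.6 CPM in WT. Both overlapped between genotypes, with log2 fold changes of -0.031 ± 0.038 SE and 0.054 ± 0.036 SE. Per kilobase of annotated exon, WT libraries had 19.1 ± 1.42 CPM of Pfkm, 10.2 ± 0.414 CPM of Pfkl and 5.14 ± 0.158 CPM of Pfkp (SD, n = 4), an order that rests on GENCODE M21 exon lengths.

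The bifunctional enzymes encoded by Pfkfb3 and Pfkfb4 set the level of an allosteric activator of phosphofructokinase. Pfkfb3 was at 40.1 ± 1.71 CPM in the 5 IRE1KO and 41.2 ± 3.35 CPM in the 4 WT libraries (SD). Pfkfb4 had 27.5, 26.4, 21.99, 26.5 and 23.6 CPM in IRE1KO and 26.6, 25.3, 18.2 and 16.04 CPM in WT, where libraries 3 and 4 lay below every IRE1KO library. It did not pass, at a log2 fold change of 0.23 ± 0.15 SE (adjusted p = 0.484, edgeR). Gpi1, the isomerase between both steps, was at 298.3 ± 7.06 CPM in the 5 IRE1KO and 282.9 ± 35.1 CPM in the 4 WT libraries (SD).

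Aldolase cleaves fructose bisphosphate into triose phosphates. Aldoa, its abundant form, had 496.8, 467.1, 480.5, 486.7 and 501.0 CPM in IRE1KO and 508.0, 500.1, 453.0 and 370.2 CPM in WT. Aldoc, the form typical of brain and a HIF target, was scarce, with 1.602, 1.33, 1.43, 2.28 and 1.39 CPM in IRE1KO and 1.02, 1.75, 1.77 and 3.87 CPM in WT. The forms moved apart in WT library 4, which was the lowest of the 9 libraries for Aldoa and the highest for Aldoc. Neither passed, with log2 fold changes of 0.087 ± 0.086 SE and -0.38 ± 0.36 SE. Aldoc and Slc16a3 were the members on chromosome 11, 28.1 and 14.5 Mb from Ern1.

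The lower part of glycolysis, from triose phosphates to phosphoenolpyruvate, included the member with the widest contrast in spread relative to counting error. Gapdh, the dehydrogenase often used as a reference gene, had 784.1, 781.8, 785.0, 789.0 and 786.2 CPM in IRE1KO and 1286, 805.1, 683.6 and 497.7 CPM in WT. The 5 IRE1KO libraries differed by 1.01-fold from lowest to highest and the 4 WT libraries by 2.58-fold. The coefficient of variation in IRE1KO was 0.339%, under the 0.791% that counting alone gives at this depth, and in WT it was 41.2%. The log2 fold change of -0.059 ± 0.22 SE had a 95% interval of -0.56 to 0.44, and without WT library 1 it turned to 0.25. Gapdh, Pgk1, Aldoa, Ldha, Eno1, Tpi1 and Pgam1 have processed pseudogenes, with which reads could be shared.

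Pgk1 and Eno1, the kinase and the main enolase of this stretch, both had WT library 1 highest and WT library 4 lowest of all 9. Pgk1 was at 116.2 ± 4.63 CPM in the 5 IRE1KO and 111.4 ± 19.7 CPM in the 4 WT libraries (SD), and Eno1 at 407.4 ± 4.99 and 401.5 ± 67.3 CPM. Pgam1, the mutase, had 65.4, 67.2, 70.8, 65.8 and 69.6 CPM in IRE1KO and 70.2, 62.7, 58.8 and 43.8 CPM in WT, with WT library 4 well below the rest (log2 fold change 0.20 ± 0.11 SE, adjusted p = 0.405, edgeR). Tpi1, the triose isomerase, was steadier, with 174.6, 179.9, 185.3, 176.1 and 188.0 CPM in IRE1KO and 172.2, 183.6, 173.0 and 162.1 CPM in WT.

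Eno2, the enolase typical of neurons and a HIF target, had 18.8, 16.1, 18.1, 17.7 and 17.98 CPM in IRE1KO and 16.3, 12.5, 13.0 and 14.5 CPM in WT. IRE1KO library 2 lay just below WT library 1, and all the other IRE1KO libraries lay above every WT library. The log2 fold change was 0.33 ± 0.085 SE, or 1.26-fold, with a 95% interval of 0.14 to 0.52 (adjusted p = 0.117, edgeR). Without WT library 1 it was 0.41 ± 0.073 SE with an adjusted p of 0.0167, and it stayed positive in all 16 fits.

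The genes of lactate output and the pyruvate gate showed no called difference. Ldha, the lactate dehydrogenase subunit favoured by HIF, had 423.4, 380.4, 399.9, 428.8 and 394.7 CPM in IRE1KO and 407.1, 387.2, 368.9 and 345.7 CPM in WT. These overlapped, at a log2 fold change of 0.10 ± 0.058 SE with a 95% interval of -0.027 to 0.24. Slc16a3, the lactate exporter MCT4, was low at 3.54 ± 1.47 CPM in the 5 IRE1KO and 3.04 ± 0.342 CPM in the 4 WT libraries (SD), and IRE1KO library 4 reached 6.02 CPM. Pdk1, the kinase that keeps pyruvate out of mitochondria, had 18.2, 17.6, 18.5, 20.5 and 17.4 CPM in IRE1KO and 15.1, 17.2, 20.1 and 28.7 CPM in WT. WT library 4 was thus the highest for Pdk1 and the lowest for Ldha.

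**Figure D2:**
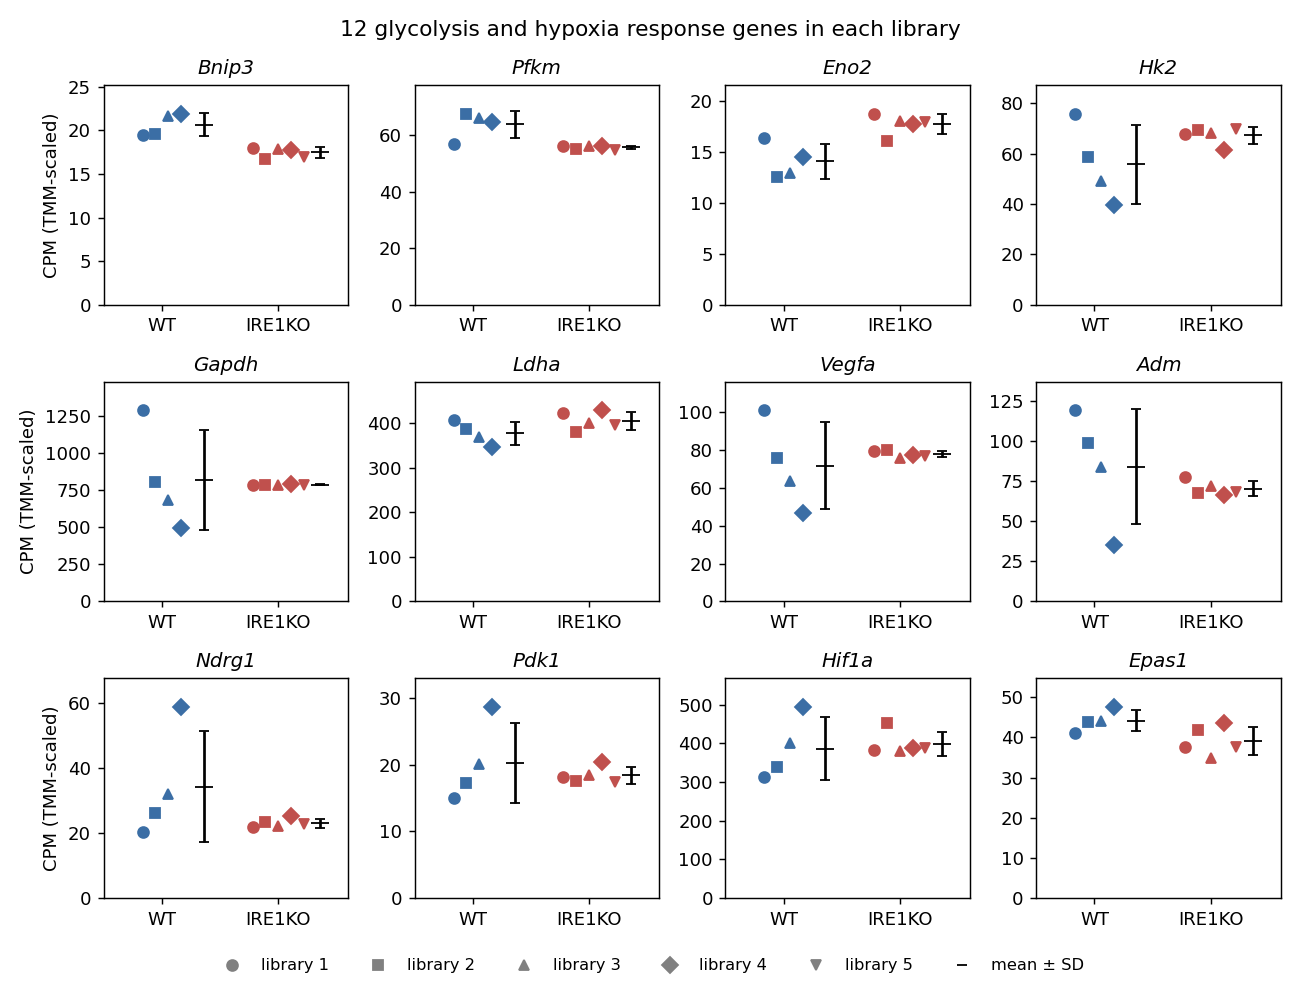
CPM of 12 members (vertical axes from 0) in 4 WT (blue) and 5 IRE1KO (red) libraries, with a symbol for each library number and black bars for mean ± SD. Bnip3 and Pfkm show no overlap between genotypes, and for Gapdh, Vegfa and Adm the IRE1KO libraries sit together while WT spans 2.16 to 3.40-fold.

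The HIF subunits showed no called difference. Hif1a had 382.3, 452.4, 380.7, 387.7 and 388.9 CPM in IRE1KO and 312.2, 338.9, 400.3 and 493.8 CPM in WT. WT library 4 was the highest and WT library 1 the lowest of all, the reverse of their order for Gapdh and Hk2. Epas1, which encodes HIF-2 alpha, had 37.7, 41.9, 34.9, 43.4 and 37.5 CPM in IRE1KO and 41.1, 43.8, 44.0 and 47.6 CPM in WT, an overlap of 2 IRE1KO libraries with WT library 1. Its log2 fold change was -0.17 ± 0.071 SE (adjusted p = 0.263, edgeR). Of the prolyl hydroxylases, Egln1 was level at 44.0 ± 2.02 CPM in the 5 IRE1KO and 43.7 ± 3.14 CPM in the 4 WT libraries (SD). Egln3, the form that HIF induces most, had 3.11, 2.00, 3.45, 2.46 and 4.41 CPM in IRE1KO and 5.52, 4.82, 4.50 and 2.14 CPM in WT, where library 4 lay among the IRE1KO libraries and the other 3 lay above them (log2 fold change -0.46 ± 0.30 SE).

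Among the other HIF targets Bnip3, a mitophagy receptor, had the smallest p of all members. It had 18.005, 16.7, 17.9, 17.7 and 17.0 CPM in IRE1KO and 19.4, 19.6, 21.6 and 21.9 CPM in WT. The groups did not overlap, and the log2 fold change was -0.24 ± 0.055 SE, or 0.846-fold, with a 95% interval of -0.37 to -0.12 (adjusted p = 0.0869, edgeR). It remained negative in all 16 fits, and the adjusted p was 0.0333 in DESeq2 and 0.0297 in edgeR without WT library 1. Car9, an acid-base enzyme of the cell surface and a standard hypoxia marker, was near the floor, with 11, 9, 8, 20 and 13 counts in IRE1KO and 11, 20, 18 and 28 counts in WT. Its log2 fold change of -0.73 ± 0.32 SE (adjusted p = 0.298, edgeR) rests on these few reads. Ankrd37, another HIF target, had 1 to 4 counts in IRE1KO and 2 to 6 in WT and was too low to test.

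Vegfa, the vascular growth factor, Adm, the vasodilator adrenomedullin, and Ndrg1, a stress-responsive gene of differentiation, split the WT libraries. Adm had 77.8, 67.5, 71.8, 66.4 and 68.4 CPM in IRE1KO and 119.2, 98.7, 83.6 and 35.0 CPM in WT. WT library 4 thus lay below all IRE1KO libraries and the other 3 above them, and without it the log2 fold change went from -0.26 ± 0.28 SE to -0.51 ± 0.10 SE (adjusted p = 0.0391, edgeR). Vegfa had 79.5, 79.9, 75.9, 77.4 and 77.0 CPM in IRE1KO and 101.1, 75.9, 63.6 and 46.8 CPM in WT, with the same libraries at the extremes and a log2 fold change of 0.12 ± 0.18 SE. Ndrg1 ran the other way, with 21.8, 23.5, 22.1, 25.3 and 22.6 CPM in IRE1KO and 20.2, 26.1, 31.9 and 58.7 CPM in WT. Its log2 fold change of -0.57 ± 0.26 SE (adjusted p = 0.320, edgeR) became -0.18 ± 0.13 SE without WT library 4.

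The remaining 3 HIF targets are transcriptional regulators and were level. Mxi1, a MYC antagonist, was at 21.8 ± 0.296 CPM in the 5 IRE1KO and 21.03 ± 1.45 CPM in the 4 WT libraries (SD). Bhlhe40, a repressor of the circadian and hypoxia programs, was at 54.9 ± 1.74 and 53.7 ± 2.77 CPM, and Kdm3a, a histone H3 lysine demethylase, at 42.9 ± 2.01 and 41.6 ± 3.05 CPM. All 3 overlapped between genotypes, with adjusted p of 0.665 to 0.753 (edgeR).

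Set against each other, glycolytic members had a median log2 fold change of 0.063 (20 tested, 13 positive) and HIF-target members one of -0.12 (10 tested, 5 positive), beside -0.0050 for all genes. The glycolytic median was 0.13 without WT library 1, 0.10 without WT library 2 and 0.023 without WT library 4. The HIF-target median was -0.020 without WT library 1, -0.075 without WT library 2, -0.059 in limma voom and -0.066 with the replicate block. For each library, the mean of the members' log2 CPM was taken after centring each gene on the 9 libraries. The glycolytic mean ran from -0.0058 to 0.082 in IRE1KO and from -0.12 to 0.061 in WT, and the HIF-target mean from -0.15 to -0.0079 and from -0.038 to 0.16. Both overlapped between the genotypes. The difference of glycolytic minus HIF-target mean did not, at 0.028 to 0.15 in IRE1KO and -0.19 to -0.068 in WT. With members under 5 CPM left out, a limit chosen after the values were seen, 18 and 8 members remained and the ranges were 0.042 to 0.081 and -0.13 to -0.0092. How often such a difference between other gene sets would separate the genotypes was not counted. These are descriptions of genes chosen with earlier results known and carry no test.

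**Figure D3:**
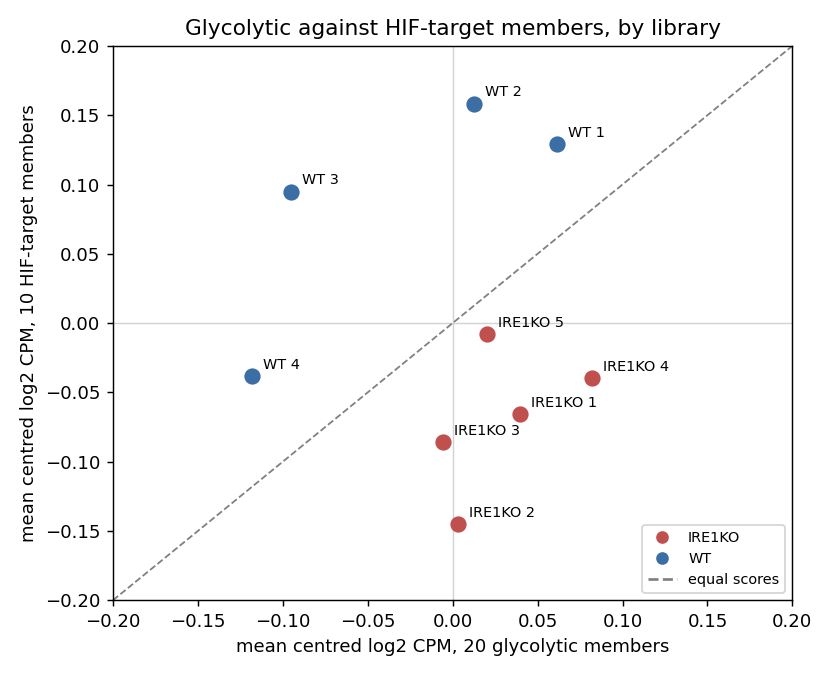
Mean centred log2 CPM of 20 glycolytic members (horizontal axis) and of 10 HIF-target members (vertical axis), with 1 point a library. The 5 IRE1KO libraries lie below the dashed line of equal scores and the 4 WT libraries above it, WT library 4 being lowest on the horizontal axis at -0.12.

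Within WT the members did not all run in the same direction. From WT library 1 to WT library 4, for instance, Hk2, Eno1 and Adm fell stepwise while Hif1a, Pdk1 and Ndrg1 rose stepwise. WT library 4 was the lowest of all 9 libraries for 12 of 20 glycolytic members, among them Slc2a1, Hk2, Gapdh and Ldha, and for the HIF targets Egln1, Vegfa, Adm and Mxi1. It was the highest for Pfkfb3, Aldoc, Pdk1, Bnip3, Car9 and Ndrg1. WT library 1 was the highest for 6 glycolytic members and 5 HIF targets and the lowest for Aldoc, Pdk1, Ndrg1 and Bhlhe40. Known HIF targets were thus found at both ends in the same library. How often each library was lowest or highest was not counted over all tested genes. WT library 4 stood apart on the first principal component of those genes, so these counts need not be particular to the members.

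Marker genes of cell types also differed between libraries. WT library 4 had the highest sum of osteoblast-lineage markers, mostly type I collagen, at 54043 CPM over 10 genes. The lowest WT library had 27497 CPM and the IRE1KO libraries 36906 to 41007 CPM. Of the 8 tested osteoblast-lineage markers, 5 had a negative and 3 a positive log2 fold change. An unadjusted p under 0.05 was reached by 3 of them (37.5%, beside 16.5% of all tested genes), and none was called (edgeR). WT library 4 also had the highest sum of endothelial markers, at 34.9 CPM over 9 genes, of which Tie1 had no counts. The lowest WT library had 13.9 CPM of these and the IRE1KO libraries 12.3 to 16.7 CPM. All 6 tested endothelial markers had a negative log2 fold change and 1, Pecam1, fell (-1.99 ± 0.36 SE, adjusted p = 0.0497, edgeR). Pecam1 lies 0.166 Mb from Ern1 on chromosome 11, and any effect of that closeness was not tested.

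Glial and pigment cell markers and adipocyte markers separated the genotypes in all 4 WT libraries. The first summed to 32.3 to 100.2 CPM over 10 genes in WT and 24.2 to 30.5 CPM in IRE1KO. All 8 tested had a negative log2 fold change, 7 had an unadjusted p under 0.05, and 1, Ngfr, fell (-3.44 ± 0.56 SE, adjusted p = 0.0452, edgeR). Ngfr also lies on chromosome 11, 10.8 Mb from Ern1. Adipocyte markers, with Cidec and Lep at 0, summed to 70.5 to 115.5 CPM over 8 genes in WT and 43.5 to 53.5 CPM in IRE1KO, and 3 of the 4 tested fell, Plin4, Lpl and Fabp4. Chondrocyte markers ranged from 1394 to 1443 CPM over 11 genes in WT. In IRE1KO libraries 1 to 5 they summed to 1352, 723.7, 1268, 1424 and 1307 CPM, so the low end was library 2 alone. All 10 tested chondrocyte markers had a negative log2 fold change, 3 an unadjusted p under 0.05, and none was called (edgeR). Macrophage and osteoclast markers ranged from 210.4 to 481.9 CPM over 10 genes in WT and from 322.8 to 508.9 CPM in IRE1KO, and none of 10 had an unadjusted p under 0.05 (edgeR). The part of these cells in the members' levels was not tested, and in bulk RNA fewer cells of a type and less RNA per cell cannot be told apart.

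The spread between WT libraries exceeded that between IRE1KO libraries for 30 of the 32 tested members, and for 82.7% of all tested genes. The median SD of log2 CPM was 0.060 in IRE1KO and 0.20 in WT for the members, beside 0.077 and 0.16 for all genes. Slc16a3 and Epas1 were the exceptions. The WT range enclosed the whole IRE1KO range for 17 of the 32 members, and for 40.5% of all genes.

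**Figure D4:**
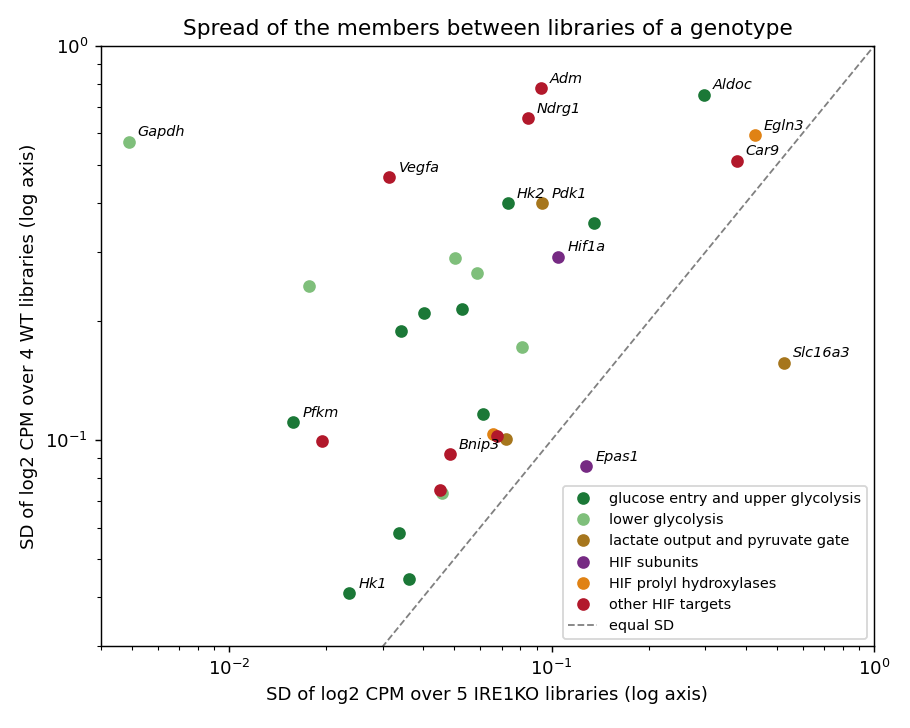
SD of log2 CPM over 5 IRE1KO libraries (horizontal axis) and over 4 WT libraries (vertical axis), both on log axes, with 1 point for each of the 32 tested members and colours for their roles. All but Slc16a3 and Epas1 lie above the dashed line of equal SD, and Gapdh lies farthest to the left.

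Ratios within a library do not depend on scaling, and 8 pairs of related members were compared by an exact two-sided permutation test over the 126 possible assignments of genotype, adjusted over the 8. None of the 8 passed. The smallest p that 126 assignments allow is 0.00794 in this exact permutation test. A single ratio at that p would still not pass after adjustment over 8, so the test could not call 1 ratio alone. The smallest p belonged to Pfkm over Pfkl, with a mean log2 count ratio of -0.26 ± 0.037 (SD, n = 5) in IRE1KO and -0.092 ± 0.11 (SD, n = 4) in WT, where the exact permutation p was 0.0159 and the adjusted p 0.127. The log2 ratio of Hk2 to Hk1 was -1.15 ± 0.069 in IRE1KO and -1.52 ± 0.38 in WT, with WT libraries at -1.06 to -1.97 on both sides of IRE1KO (exact permutation p = 0.0714, adjusted p = 0.143). Eno2 to Eno1 was at -4.52 ± 0.077 in IRE1KO and -4.82 ± 0.26 in WT (exact permutation p = 0.0635). Pfkp to Pfkl differed by 0.085, Epas1 to Hif1a by -0.24, Pfkfb4 to Pfkfb3 by 0.29, Egln3 to Egln1 by -0.44 and Aldoc to Aldoa by -0.34 on the log2 scale, with adjusted exact permutation p of 0.143 to 0.571.

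**Figure D5:**
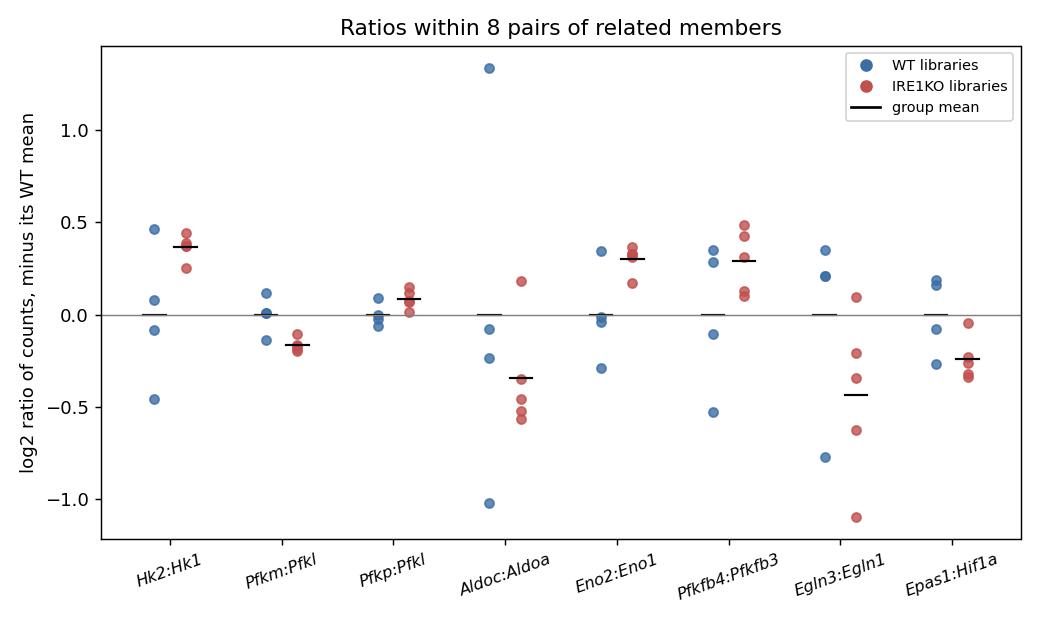
Log2 count ratio of 8 pairs of related members, minus its mean in WT (vertical axis), with 1 point a library in blue for WT and red for IRE1KO and black bars for group means. Pfkm to Pfkl lies lower in IRE1KO by 0.16, and the WT points of Aldoc to Aldoa spread the widest.

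Of 35 tested further genes of glycolysis, glucose and pyruvate handling, 0 rose, 1 fell and 34 did not pass. The gene that fell was Pdk4, a kinase that blocks pyruvate dehydrogenase when fat is burned: it had 43.4, 38.9, 54.4, 47.5 and 49.6 CPM in IRE1KO and 67.3, 83.2, 89.8 and 76.9 CPM in WT, with no overlap, and a log2 fold change of -0.76 ± 0.11 SE (adjusted p = 0.0376, edgeR). Pkm, the last enzyme of the pathway, was at 1136 ± 22.6 CPM in the 5 IRE1KO and 1038 ± 233.4 CPM in the 4 WT libraries (SD) and had its lowest value, 700.9 CPM, in WT library 4. Of 53 tested further HIF targets, 1 rose, 0 fell and 52 did not pass. That gene was Ddit4, an inhibitor of mTORC1 also induced by other stresses, at 30.4 ± 0.670 CPM in IRE1KO against 25.6 ± 1.02 CPM in WT (log2 fold change 0.25 ± 0.041 SE, adjusted p = 0.0470, edgeR). The folds stayed close in all 15 alternative fits, at -0.83 to -0.70 on the log2 scale for Pdk4 and 0.23 to 0.28 for Ddit4, while the calls varied. Pdk4 also passed in DESeq2, limma voom, with RLE size factors, library totals and no filter, and Ddit4 in DESeq2 and with RLE size factors. Each call was kept in 2 of the 9 fits that leave out a library, those without WT library 1 and without WT library 4, where the adjusted p over the 9 fits ran from 0.00603 to 0.125 for Pdk4 and from 0.0158 to 0.146 for Ddit4 (edgeR). With the replicate number as a block the adjusted p was 0.126 and 0.235. An unadjusted p under 0.05 was reached by 12 of the 53 further HIF targets (22.6%) and by 6 of the 35 further glycolysis genes (17.1%), beside 16.5% of all tested genes.

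No gene was called among 21 tested genes of the HIF machinery, 9 of the pentose phosphate pathway or 25 of the TCA cycle (edgeR), where an unadjusted p under 0.05 was reached by 2, 1 and 2. Arnt, the partner of HIF-alpha, was at 117.2 ± 3.03 CPM in the 5 IRE1KO and 114.8 ± 13.4 CPM in the 4 WT libraries (SD), and Vhl, which recognises hydroxylated HIF-alpha, at 29.7 ± 0.67 and 28.9 ± 2.91 CPM. The smallest p values belonged to Ube2d1 (log2 fold change -0.095 ± 0.036 SE) and Arntl (0.21 ± 0.091 SE) in the machinery, Tkt (0.15 ± 0.055 SE) and Pgd (0.24 ± 0.11 SE) in the pentose phosphate pathway, and Idh2 (-0.36 ± 0.14 SE) in the TCA cycle. Their medians were 0.029, 0.071 and 0.021, each within 0.1 of the median of all tested genes.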

How the data were processed

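PolyA RNA of 5 IRE1KO and 4 WT libraries was sequenced in a single batch, per the labels' protocols. The deposited table holds raw counts per gene, made by the authors; STAR, limma and mm10 are named in the submitters' processing notes, while no source used here names the counting program, its strand setting or the annotation. No row lacked a gene name. Counts were filtered with filterByExpr, scaled by TMM and tested in edgeR 4.0.16 (robust quasi-likelihood, genotype as the only term, Benjamini-Hochberg adjustment over 13712 genes, threshold 0.05) in R 4.3.3. Alternatives were DESeq2 1.42.0, limma 3.58.1 voom, RLE size factors, library totals, no filter, a replicate block and leaving out each library. Ratios used counts plus 0.5. Libraries held 18784636 to 22028075 counts. Intervals and floors cover counting error only where they rest on counts of 1 library.

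The edgeR test was tested on simulated data of 13634 genes. Values in every library were given for the 16 members with the smallest p, for the members of a ratio with an unadjusted p under 0.05, and, chosen after their values were seen, for Gapdh, Adm, Vegfa, Hif1a and Pdk1. From the other lists the genes that passed, otherwise the 2 with the smallest p, and Pkm, Arnt and Vhl were named. A further gene that this rule would name is not reported here. Members and lists were chosen with earlier results of these data known. Exon lengths and positions came from GENCODE M21 on GRCm38, promoter windows from RefSeq. The labels call each library a biological replicate and do not say which litters or sorting days they share.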

Additional observations from a re-analysis of the deposited data

Results flagged for a closer look

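Of 64 groups of libraries searched (32 members in 2 genotypes), 4 held a library set apart from the rest of its genotype by Dixon's criterion, which chance meets in about 1 of 20 groups. Hk2 was lowest in IRE1KO library 4 at 61.5 CPM, with the next library at 67.6 CPM. Pgk1 was lowest in the same library at 108.3 CPM, with the next at 116.8 CPM. Hif1a was highest in IRE1KO library 2 at 452.4 CPM, with the next at 388.9 CPM. Kdm3a was highest in WT library 1 at 46.1 CPM, with the next at 40.5 CPM.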

How the results depend on the processing

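The count of members called higher was 1 in DESeq2 and 0 to 2 when a library was left out, and the count called lower was 2 in DESeq2 and 0 to 2. Over all genes, against 87 calls, DESeq2 gave 568, library totals 46, limma voom 16, no filter 45 and the replicate block 0 (edgeR, 1596 genes at an unadjusted p under 0.05), and leaving out a library gave 2 to 1192. Same-numbered libraries correlated at 0.15, -0.20, -0.19 and 0.47 in their deviations, and libraries of different number at -0.54 to 0.51. These values do not settle whether same-numbered libraries are paired. With the block no member passed. The ratios could not pass with the block, since sign changes over so few pairs cannot give a p under 0.05. The HIF-target median was -0.24 with no filter, where Ankrd37 enters, and -0.12 to -0.020 when a library was left out. The glycolytic median then ran from 0.023 to 0.13. Signs turned for Gapdh in limma voom (0.028) and with the replicate block (0.028), and for Egln1 under library totals (-0.014). Leaving out a library turned the sign of Gpi1 (-0.0077 to 0.12), Pfkfb3 (-0.072 to 0.0090), Aldoa (-0.0020 to 0.14), Aldoc (-0.61 to 0.093), Gapdh (-0.24 to 0.25), Pgk1 (-0.044 to 0.14), Eno1 (-0.069 to 0.11), Slc16a3 (-0.059 to 0.35), Pdk1 (-0.25 to 0.078), Hif1a (-0.046 to 0.18), Egln1 (-0.032 to 0.044), Vegfa (-0.041 to 0.33), Pkm (-0.018 to 0.21), Arnt (-0.017 to 0.11) and the ratio of Aldoc to Aldoa (-0.68 to 0.10), all on the log2 scale. The cause was not tested. Depth limits Ankrd37, Car9, Aldoc, Slc16a3 and Egln3, the 5 members with the fewest reads.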
